A study of Mus musculus with 18 samples.

Results

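The 36 DNA replication genes followed here are the genes of the count table whose symbol is on a list of S phase genes, 36 of 55486 genes in all. Each symbol occurred once in the table, and all 36 genes passed the filter on low counts, among 14273 genes tested. By role they are 10 genes of origin licensing (Mcm2 to Mcm7, Orc1, Orc6, Cdc6 and Cdt1), 6 of origin firing (Mcm10, Cdc45 and Gins1 to Gins4), 5 of the polymerases and primase (Pola1, Prim1, Pole, Pole2 and Pold1), 7 of the sliding clamp, its loader and fragment joining (Pcna, Rfc2 to Rfc5, Fen1 and Lig1), 4 of nucleotide supply (Rrm1, Rrm2, Tyms and Tk1) and 4 of chromatin assembly and S phase control (Chaf1a, Chaf1b, Uhrf1 and E2f1).

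The cells were normal fibroblasts (NFs) that had been sorted from mammary glands of female FVB/n mice of 8 to 16 weeks, as cells lacking EpCAM, CD49f, CD45 and CD31, and split by the surface peptidase CD26 into CD26- and CD26+ NFs. All were grown on collagen in medium with serum and then kept for 7 days in control medium or in tumour conditioned medium (CM). The CM came from 6 cell lines made from tumours of a mouse model of invasive lobular breast carcinoma. The 18 polyA RNA libraries form 4 groups, namely CD26- control (replicates 1 to 3), CD26- CM (replicates 4 to 9), CD26+ control (replicates 10 to 12) and CD26+ CM (replicates 13 to 18). No line was used for more than 1 library of a CM group, so the spread among CM libraries contains any difference between lines. The mice of a sort were pooled, 4 to 6 on average, the cells had been passaged, and the study notes that CD26 itself is lost in culture. The labels do not say whether replicates came from separate sorts or cultures, so the p-values measure the spread between these libraries, which may be technical.

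DNA replication is prepared in G1, when the origin recognition complex, Cdc6 and Cdt1 load the Mcm2 to Mcm7 ring onto origins, and it starts in S phase, when Mcm10, Cdc45 and the GINS complex turn that ring into the active helicase. DNA polymerases then copy both strands on the Pcna clamp while ribonucleotide reductase and the thymidylate enzymes supply nucleotides and Chaf1 rebuilds chromatin behind the fork. Many of these genes are switched on together at the G1 to S transition by E2F transcription factors and are low in resting cells, so their RNA is widely used as a sign of cycling cells. In a bulk library fewer cycling cells and less RNA per cycling cell cannot be told apart.

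Some promoters of the group carry a sequence motif that the choice of genes did not use. RefSeq promoters, from 250 bases before to 50 bases after the start site on GRCm38.p6, were found for 30 of the 36 genes, and none was found for Mcm4, Gins1, Gins2, Gins4, Pole and Rfc2. An E2F-type motif, searched as TTTCGCGC or TTTGGCGC on both strands, stood in 9 of the 30 promoters (30.0%), against 0.813% of all 32851 promoters in the table and 1.52% of the 10670 promoters of tested genes. The NF-Y motif CCAAT, searched on both strands, stood in 18 of the 30 (60.0%), against 37.4% of all promoters and 38.8% of those of tested genes. The 9 genes with the E2F motif were Mcm3, Mcm5, Mcm6, Mcm7, Orc1, Cdt1, Pola1, Pole2 and Rfc3. Both motifs were held by 7 of the 30 promoters (23.3%), against 0.377% of all promoters and 0.759% of those of tested genes. A match is a description of these letters and not a measured binding site. The 4 promoters below are shown because Mcm6 held the most matches, 3 of them, and because Mcm7, Cdt1 and Rfc3 are followed library by library further on. Each is written 5′ to 3′ on the strand of its gene, with the E2F motif in capitals, as in the reference genome of GRCm38.p6, which is not the FVB/n genome of these mice. They lie at chr1:128359656-128359955 on the minus strand (Mcm6), chr5:138171834-138172133 on the minus strand (Mcm7), chr8:122567765-122568064 on the plus strand (Cdt1) and chr5:151651159-151651458 on the minus strand (Rfc3).
Mcm6: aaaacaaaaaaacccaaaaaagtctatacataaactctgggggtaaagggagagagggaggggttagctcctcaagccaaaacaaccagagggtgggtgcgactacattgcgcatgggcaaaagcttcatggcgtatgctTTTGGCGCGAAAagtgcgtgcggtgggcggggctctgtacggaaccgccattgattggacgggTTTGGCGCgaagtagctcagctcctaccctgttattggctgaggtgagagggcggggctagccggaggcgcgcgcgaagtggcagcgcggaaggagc
Mcm7: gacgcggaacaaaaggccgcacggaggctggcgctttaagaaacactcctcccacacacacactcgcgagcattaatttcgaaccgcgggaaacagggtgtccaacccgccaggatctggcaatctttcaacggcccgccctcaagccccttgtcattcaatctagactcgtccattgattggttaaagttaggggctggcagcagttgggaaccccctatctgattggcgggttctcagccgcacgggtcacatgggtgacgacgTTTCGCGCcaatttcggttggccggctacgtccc
Cdt1: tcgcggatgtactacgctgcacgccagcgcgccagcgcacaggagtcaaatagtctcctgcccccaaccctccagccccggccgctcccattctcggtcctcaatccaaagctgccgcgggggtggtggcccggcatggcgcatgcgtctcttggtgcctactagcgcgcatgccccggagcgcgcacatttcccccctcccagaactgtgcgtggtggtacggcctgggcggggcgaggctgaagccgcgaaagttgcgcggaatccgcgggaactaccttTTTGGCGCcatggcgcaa
Rfc3: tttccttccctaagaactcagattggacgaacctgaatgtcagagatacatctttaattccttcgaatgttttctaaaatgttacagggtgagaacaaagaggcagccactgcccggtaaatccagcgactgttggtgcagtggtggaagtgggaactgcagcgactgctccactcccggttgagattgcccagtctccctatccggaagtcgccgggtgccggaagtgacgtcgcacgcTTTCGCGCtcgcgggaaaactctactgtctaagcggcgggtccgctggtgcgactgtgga
In Mcm6 the first capital stretch holds 2 overlapping matches, 1 on each strand, that start 110 and 106 bases before the start site, and the other match starts 47 bases before it. The match lay 17 bases after the start in Mcm7, 33 bases after it in Cdt1 and 10 bases before it in Rfc3.

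The libraries held 9725723 to 14585349 counts, and counts of a replication gene in a library ran from 10 to 4326. The 36 genes together took between 0.0705% and 0.199% of a library's counts. Replicate 18, CD26+ NFs given the CM of line 13-MCB-138, stood apart from the other 5 CD26+ CM libraries. Over other genes that respond to CM, chosen without that library, it showed a median of 44.2% of the change seen in the rest of its group, where the other 5 showed 87.6% to 123%. The main counts of calls are therefore given with and without it. Of the markers checked, the fibroblast genes Col1a1, Pdgfra and Pdgfrb were counted in every library. The fibroblast list summed to 16530 to 18490 CPM (counts relative to library size, scaled by TMM) in CD26- control, 9813 to 21490 in CD26- CM, 62520 to 79500 in CD26+ control and 29190 to 52130 in CD26+ CM. Of its 9 markers, 3 were called higher and 4 lower with CM in CD26+ NFs, against 4 higher and 1 lower in CD26- NFs. The part of this list in the results below was not tested. The epithelial list was present in every library although the sort had excluded EpCAM, with a summed CPM of 4523 to 5031 in CD26- control, 2790 to 4607 in CD26- CM, 738.8 to 1334 in CD26+ control and 663.9 to 1600 in CD26+ CM. None of its 10 markers was at 0, and 9 of them were lower in CD26+ NFs in both media. The immune list summed to 14.59 to 29.73 CPM and the endothelial list to 1.858 to 8.768 CPM, and their defining markers Ptprc, Cd3e and Cd79a had at most 3 counts in a library and Pecam1 had 1 to 17. The endothelial cadherin Cdh5 had 15 to 23 counts in CD26- control, 27 to 64 in CD26- CM, 3 to 6 in CD26+ control and 6 to 22 in CD26+ CM.

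Per kilobase of exonic length, Rrm2, the small subunit of ribonucleotide reductase, had the highest level of the 36 genes in every group, 80.3 CPM per kilobase in CD26+ control and 44.4 in CD26+ CM. It was followed in every group by Rrm1, the large subunit, Pcna, Mcm4 and Mcm3. Without replicate 18 the CD26+ CM level was 35.3 for Rrm2 and 37.8 for Rrm1, which was then the highest. Fen1, the flap endonuclease that trims Okazaki fragments, had the lowest, 0.652 CPM per kilobase in CD26+ control. Genes on the opposite strand overlap 84.2% of its exonic length, and whether this lowered its count was not tested.

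The summed level of the replication genes separated 5 CD26+ CM libraries from all other libraries. It was 1558, 1654 and 1650 CPM in the 3 CD26- control libraries, and in CD26- CM it ran from 1574 through a median of 1750 to 1856. In CD26+ control it was 1810, 1799 and 1840. The CD26+ CM libraries held 742.4, 963.8, 1288, 1216, 1069 and 2021 CPM in replicates 13 to 18. Replicate 18 was thus above every control library, and the other 5 were below every library of the other 3 groups. The heatmap shows the same libraries gene by gene, and not every gene followed the sum. In these 5 libraries Cdt1 and Pold1 overlapped CD26- control. So did Mcm2, Mcm3, Orc1, Cdc6, Cdc45, Gins3, Pole2, Fen1, Uhrf1 and E2f1.

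**Figure D1:**
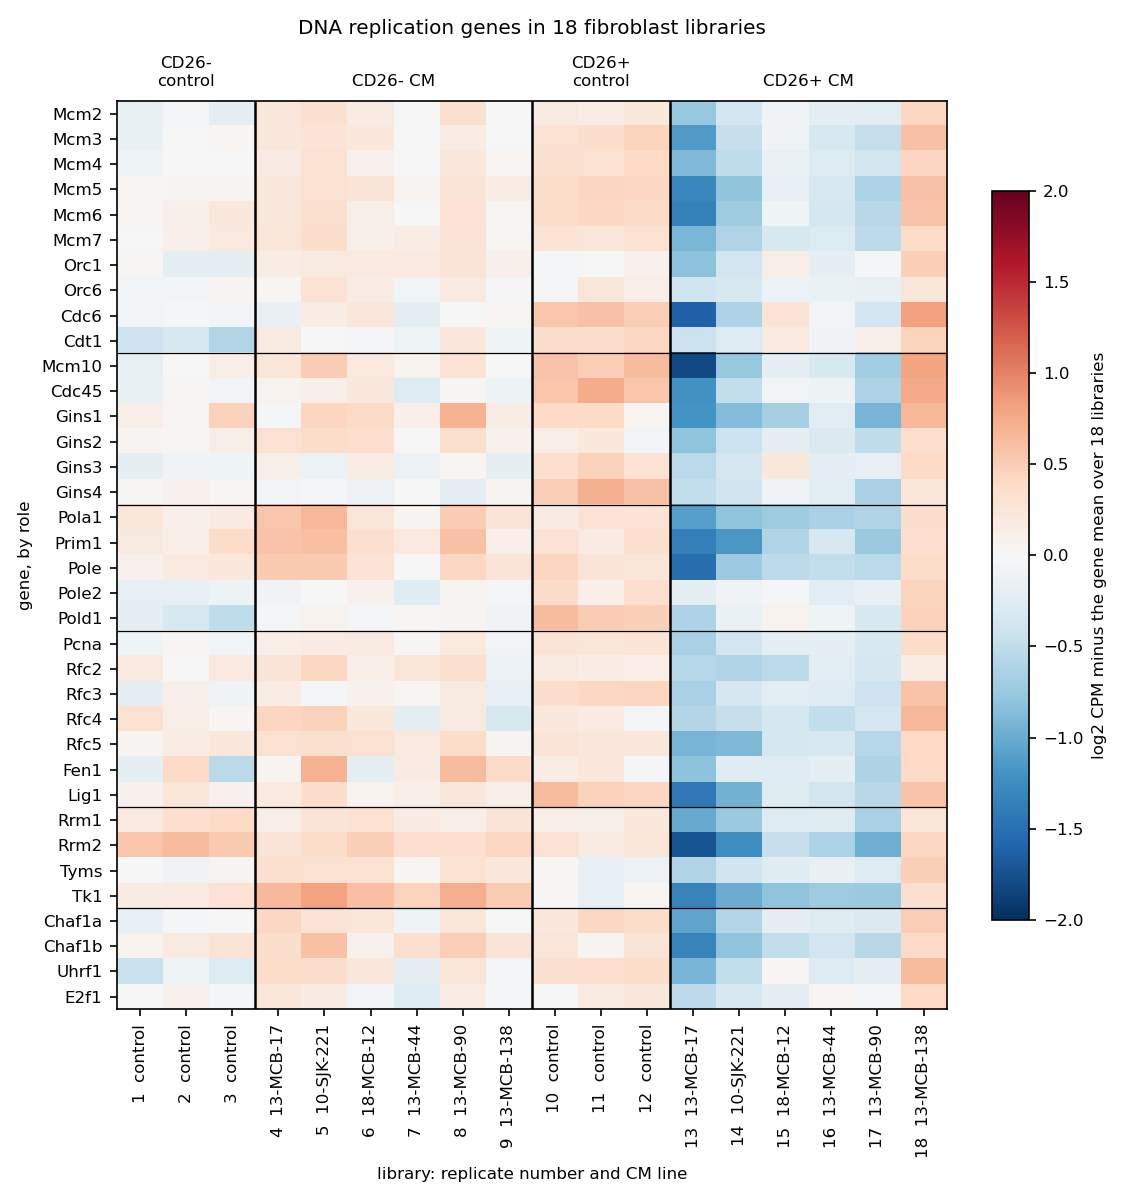
Each row is a replication gene, grouped by role with thin lines, and each column is a library, grouped by cell type and medium with thick lines. Color gives log2 CPM minus the mean of that gene over 18 libraries, from blue (lower) to red (higher). The CD26+ CM libraries 13 to 17 are mostly blue, with replicate 13 the darkest, and replicate 18 is red in all 36 genes.

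Whether tumour CM changed these genes in CD26+ NFs was asked with edgeR's quasi-likelihood test, with the false discovery rate (FDR) taken over all tested genes and calls made under 0.05. With CM, 22 of the 36 genes fell and none rose, so 61.1% were called lower where 13.4% of all tested genes were, and 15.2% of all tested genes were called higher. The median log2 fold change was -0.59, with single genes between -0.88 and -0.08, while the median over all tested genes was 0. Without replicate 18, 34 of the 36 fell, where 17.5% of all tested genes were called lower, and the median was -0.78. The exceptions were Orc1 and Fen1. In no comparison did a replication gene pass the additional limit of the study, a log2 difference beyond 2 in size, which 0.904% and 2.01% of all tested genes passed for the CM effects in CD26- and CD26+ NFs, 5.97% and 4.16% between the cell types in control medium and in CM, and 0.392% for the difference between the CM effects. The group ranges of 34 genes overlapped, and those of Gins4 and Pold1 did not, where 11.6% of all tested genes had the CM group wholly below. Without replicate 18, the groups of 33 genes did not overlap, against 18.1% of all tested genes, and the exceptions were Orc1, Tyms and E2f1. The count of 22 also fell to 7, 10 and 8 when control replicate 10, 11 or 12 was left out, and to 14 without replicate 14 or 17. In those fits 9.7%, 8.83%, 9.49%, 11.3% and 11.8% of all tested genes were called lower. With only the CD26+ groups in the fit, 3 genes were called lower, where 11.3% of all tested genes were, while all 36 log2 fold changes were below 0 and their median was again -0.59. Gins4, Mcm7, Pcna, Pola1, Pold1 and Rfc2 passed whichever of the 9 libraries was left out.

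**Figure D2:**
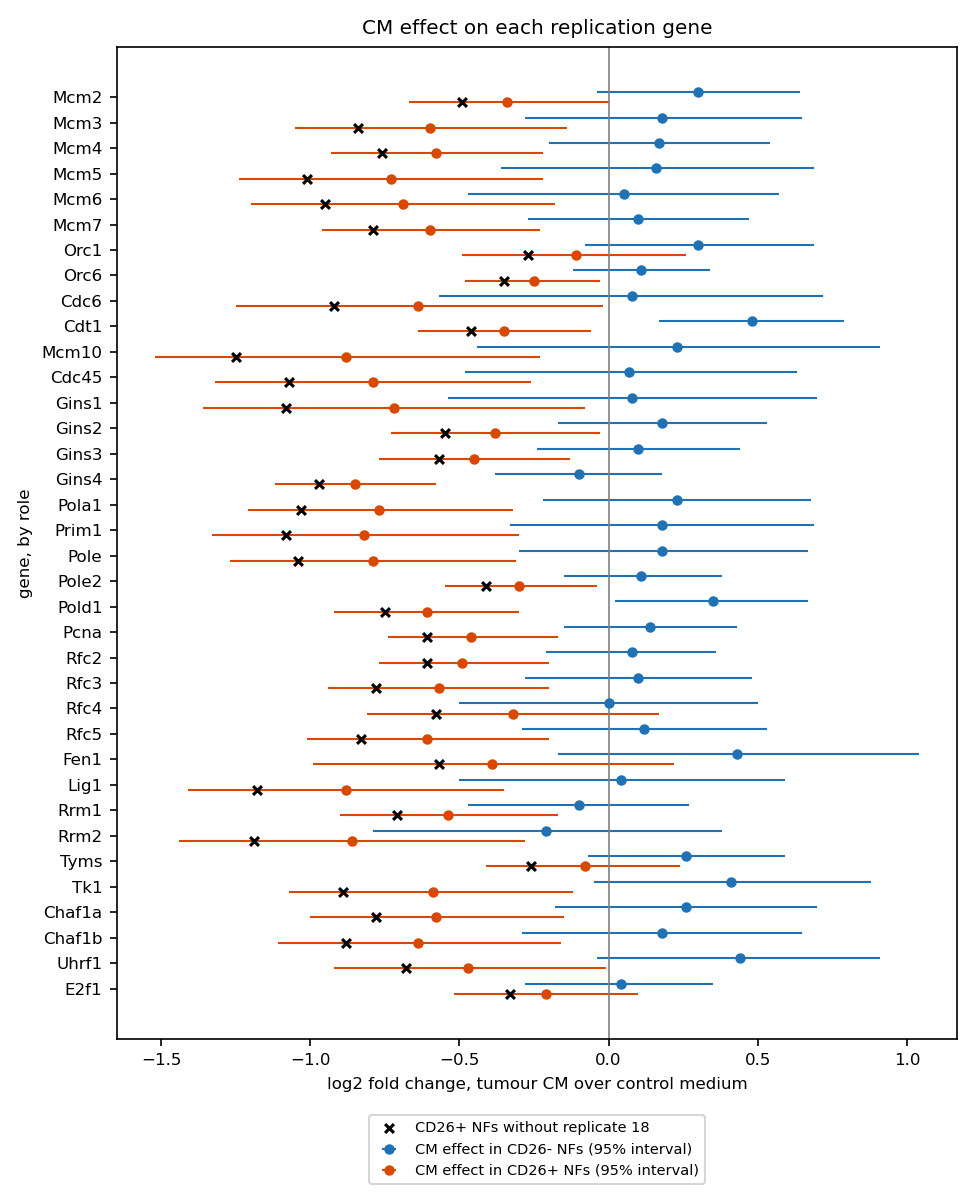
The x axis is the log2 fold change of tumour CM over control medium and the y axis lists the replication genes by role. Circles are edgeR estimates with 95% intervals in CD26- NFs (blue) and CD26+ NFs (orange), and crosses are the CD26+ estimates without replicate 18. All 36 orange circles lie below 0, from -0.88 to -0.08, and 32 of the 36 blue circles lie above 0.

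Among the licensing genes, 5 of 10 fell with CM in CD26+ NFs and 9 of 10 without replicate 18, with medians of -0.59 and -0.77. Mcm7 (ENSMUSG00000029730, chromosome 5, 138164583 to 138172422), a subunit of the helicase ring, had 72.3, 71.5 and 74.2 CPM in CD26+ control and ran from 31.8 through a median of 45.1 to 77.5 CPM in CD26+ CM. Replicate 18 was the highest of all these libraries and the other 5 were below every control. The log2 fold change was -0.60 ± 0.17 (SE; 95% interval -0.96 to -0.23; edgeR FDR 0.0149), and -0.79 ± 0.11 without replicate 18. In CD26- NFs it was at 59.7, 64.7 and 68.6 CPM in control and 61.9, 68.6 and 77.1 CPM (lowest, median and highest) in CM, with overlapping groups (log2 fold change 0.10 ± 0.18, edgeR FDR 0.752). Mcm3, Mcm4, Mcm5 and Mcm6, of the same ring, fell by 0.58 to 0.73 on the log2 scale in CD26+ NFs, and without replicate 18 they were at -1.01 to -0.76. Mcm2 was at -0.34 (edgeR FDR 0.122), and at -0.49 (edgeR FDR 0.00279) without replicate 18. Orc1, of the origin recognition complex, stayed above the threshold in both fits, with -0.11 and -0.27.

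Cdt1 (ENSMUSG00000006585, chromosome 8, 122568015 to 122573554), the loader of the ring whose degradation blocks a further round of licensing, had values that crossed between the cell types. It was at 16.0, 17.1 and 14.3 CPM in CD26- control and ran from 20.1 through 21.3 to 24.7 CPM in CD26- CM, so that every CM library was above every control. In CD26+ control it was at 27.3, 27.5 and 28.6 CPM, above every CD26- library of either medium. In CD26+ CM it ran from 15.8 in replicate 13 through 21.9 to 29.3 CPM in replicate 18. The CM effect in CD26- NFs was a rise of 0.48 ± 0.15 in log2 CPM (edgeR FDR 0.0347), and its log2 fold change in CD26+ NFs was -0.35 ± 0.14 (edgeR FDR 0.0646), or -0.46 ± 0.12 (edgeR FDR 0.00517) without replicate 18. The rise in CD26- NFs lost the FDR when replicate 1, 2, 3, 4, 5 or 8 was left out, where its FDR reached 0.164.

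Of the 6 origin firing genes, 4 fell with CM in CD26+ NFs and all 6 without replicate 18. Gins4 (ENSMUSG00000031546, chromosome 8, 23226616 to 23237659), a subunit of the GINS complex, had the smallest p of the 36 genes there. It was at 31.4, 36.6 and 33.5 CPM in CD26+ control and ran from 14.1 through 18.0 to 26.2 CPM in CD26+ CM. Every CM library was below every control, replicate 18 included. The log2 fold change was -0.85 ± 0.13 (95% interval -1.12 to -0.58; edgeR FDR 0.000111), a level of 55.5% of control, and -0.97 ± 0.09 without replicate 18. In CD26- NFs Gins4 held 22.6, 23.5 and 22.9 CPM in control and 19.3, 21.6 and 23.1 CPM in CM (lowest, median and highest), with overlapping groups and -0.10 ± 0.13 (edgeR FDR 0.651). Mcm10, which helps to activate the helicase, had the lowest fold change of the 6, -0.88 ± 0.31 (edgeR FDR 0.0406), and Cdc45 was at -0.79 ± 0.25 (edgeR FDR 0.0248). Without replicate 18 they were at -1.25 and -1.07. Gins1 (-0.72, edgeR FDR 0.0840) and Gins2 (-0.38, edgeR FDR 0.0958) were called without replicate 18 (-1.08 and -0.55). Gins2, another subunit, was at 17.6, 18.7 and 15.5 CPM in CD26+ control and 9.10, 12.5 and 20.4 CPM in CD26+ CM, lowest in replicate 13. In CD26- NFs Gins2 held 16.7, 16.2 and 17.3 CPM in control and 15.9 through 19.9 to 20.7 CPM in CM, and those groups overlapped.

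Among the polymerase genes, 4 of 5 fell in CD26+ NFs. Pold1 (ENSMUSG00000038644, chromosome 7, 44532746 to 44548849), the catalytic subunit of DNA polymerase delta, was at 36.5, 33.6 and 32.9 CPM in CD26+ control and ran from 15.3 through 21.8 to 32.6 CPM in CD26+ CM. The groups did not overlap, although replicate 18 came close to the lowest control. The log2 fold change was -0.61 ± 0.15 (edgeR FDR 0.00470), a level of 65.5% of control, and -0.75 ± 0.11 without replicate 18. In CD26- NFs Pold1 was at 20.5, 18.9 and 16.4 CPM in control and ran from 22.4 through 23.5 to 24.6 CPM in CM, again without overlap but in the other direction (log2 fold change 0.35 ± 0.16, edgeR FDR 0.138). Pola1 and Prim1, the catalytic subunit of polymerase alpha and the primase that starts each fragment, fell by 0.77 and 0.82 on the log2 scale in CD26+ NFs, and Pole, the leading strand polymerase, fell by 0.79. Without replicate 18 these 3 fell by 1.03, 1.08 and 1.04. Pole2, its accessory subunit, was at -0.30 (edgeR FDR 0.0789), and at -0.41 (edgeR FDR 0.00136) without replicate 18.

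Of the clamp, loader and joining genes, 5 of 7 fell in CD26+ NFs. Rfc2, a subunit of the clamp loader, was at 34.5, 33.6 and 33.2 CPM in CD26+ control and 20.0, 22.4 and 33.7 CPM in CD26+ CM (lowest, median and highest). Replicate 18 was within the control range and the other 5 were below it. The log2 fold change was -0.49 ± 0.14 (edgeR FDR 0.0119), and -0.61 ± 0.11 without replicate 18. In CD26- NFs Rfc2 ran from 30.7 to 34.9 CPM in control and from 27.9 to 40.6 CPM in CM, around it on both sides. Rfc3 (ENSMUSG00000033970, chromosome 5, 151642756 to 151651242), another loader subunit, had 21.1, 21.9 and 22.2 CPM in CD26+ control and 10.4, 13.4 and 24.6 CPM in CD26+ CM, with 5 libraries below every control and replicate 18 above. Its log2 fold change was -0.57 ± 0.18 (edgeR FDR 0.0226), and the call was lost without any of the 3 controls (edgeR FDR up to 0.0644). Without replicate 18 it was -0.78 ± 0.10. In CD26- NFs Rfc3 was at 14.3, 17.8 and 15.5 CPM in control and 14.6 to 18.7 CPM in CM, with overlapping groups. Pcna, the clamp, fell by 0.46 on the log2 scale and Lig1, the ligase that seals the fragments, by 0.88, and without replicate 18 by 0.61 and 1.18. Fen1 stayed above the threshold with and without replicate 18. It was counted at 1.62, 1.70 and 1.41 CPM in CD26+ control and 0.758 to 1.97 CPM in CD26+ CM, and at 1.26, 1.96 and 0.948 CPM in CD26- control and 1.24 to 2.46 CPM in CD26- CM. At this depth its intervals were wide, -0.99 to 0.22 in CD26+ NFs and -0.17 to 1.04 in CD26- NFs on the log2 scale.

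Among the nucleotide supply genes, Rrm1 and Rrm2 fell in CD26+ NFs, and Tk1 and Tyms were called lower once replicate 18 was left out. Rrm2 (ENSMUSG00000020649, chromosome 12, 24708241 to 24714146) was at 183, 169 and 176 CPM in CD26+ control. In CD26+ CM it was at 44.8, 62.6, 108, 95.4, 75.9 and 197 CPM in replicates 13 to 18, so that replicate 13 held the least and replicate 18 more than any control. The log2 fold change was -0.86 ± 0.28 (edgeR FDR 0.0267), or -1.19 ± 0.17 without replicate 18, a level of 43.8% of control. The call was lost without replicate 10, 11, 12 or 17, with an edgeR FDR of up to 0.0753. In CD26- NFs Rrm2 was at 219, 230 and 214 CPM in control and 178, 190 and 207 CPM in CM (lowest, median and highest), each CM library below each control, with -0.21 ± 0.28 (edgeR FDR 0.664). Rrm1 ran from 239 to 257 CPM in CD26+ control and from 110 through 163 to 263 CPM in CD26+ CM, a log2 fold change of -0.54 ± 0.17 (edgeR FDR 0.0273), or -0.71 ± 0.12 without replicate 18. That call was lost without replicate 10, 11, 12, 14 or 17 (edgeR FDR up to 0.0837). In CD26- NFs Rrm1 ran from 254 to 293 CPM in control and from 242 to 274 CPM in CM.

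Tk1 (ENSMUSG00000025574, chromosome 11, 117815526 to 117826092), the thymidine kinase of S phase, differed most between the cell types in CM. It was at 27.1, 27.3 and 29.6 CPM in CD26- control and 32.7, 37.2 and 42.2 CPM in CD26- CM, with every CM library above every control. In CD26+ NFs it was at 24.6, 21.5 and 24.7 CPM in control and at 9.48, 12.1, 13.8, 14.6, 14.4 and 30.0 CPM in replicates 13 to 18. Replicate 18 was again above the controls and the other 5 below. The CM effects were 0.41 ± 0.22 in CD26- NFs (edgeR FDR 0.221) and -0.59 ± 0.23 in CD26+ NFs (edgeR FDR 0.0562), and without replicate 18 both passed, at 0.41 ± 0.11 (edgeR FDR 0.0141) and -0.89 ± 0.12 (edgeR FDR 1.47e-05).

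Chaf1a and Chaf1b, subunits of the chromatin assembly factor, fell in CD26+ NFs by 0.58 and 0.64 on the log2 scale, and by 0.78 and 0.88 without replicate 18. Chaf1a was at 38.9, 44.4 and 43.0 CPM in CD26+ control and 16.1, 27.9 and 47.0 CPM in CD26+ CM, lowest in replicate 13 and above every control in replicate 18 alone. Its call (edgeR FDR 0.0408) was lost in 6 of 9 fits without a library, those without replicate 10, 11, 12, 13, 14 or 17, with an FDR of up to 0.114. In CD26- NFs Chaf1a ran from 29.7 to 33.4 CPM in control and from 31.7 to 44.4 CPM in CM. Uhrf1, which carries DNA methylation through replication, was at 82.7, 83.3 and 85.3 CPM in CD26+ control and 34.5, 56.7 and 102 CPM in CD26+ CM, a log2 fold change of -0.47 ± 0.22 (edgeR FDR 0.115), or -0.68 ± 0.16 (edgeR FDR 0.00281) without replicate 18. In CD26- NFs Uhrf1 was at 48.5, 62.1 and 54.5 CPM in control and 58.0, 77.6 and 85.5 CPM in CM, with overlapping groups. E2f1, the transcription factor of the list, was at -0.21 in CD26+ NFs (edgeR FDR 0.309), and at -0.33 (edgeR FDR 0.0402) without replicate 18.

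**Figure D3:**
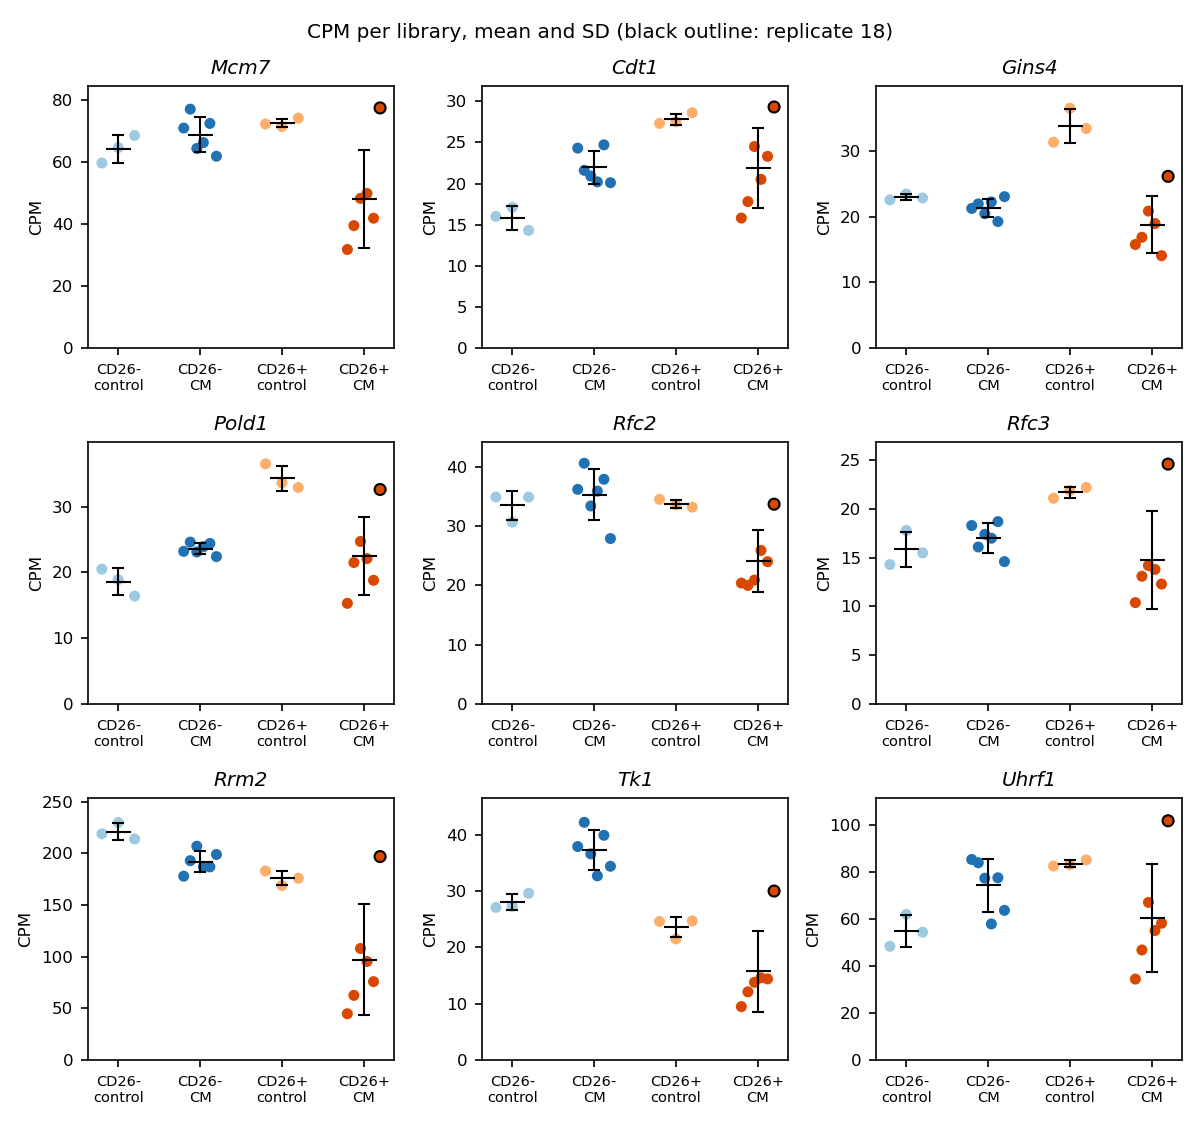
Each panel plots the CPM of a replication gene in every library by group, with the mean and SD in black and replicate 18 outlined in black. The 5 other CD26+ CM libraries lie below the CD26+ control libraries in all 9 genes shown, while replicate 18 lies at or above them except in Gins4 and Pold1.

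Some of these genes overlap other genes, and the strand setting of the counter is not given in the sources used here. Counts in the overlapped stretches may therefore be too high or too low. In the GENCODE M21 annotation, whose coordinates equal those of the table for all 36 genes, 22 genes had no exonic overlap. The largest overlaps on the opposite strand were 84.2% of the exonic length of Fen1, 70.7% of Gins2 (with Gse1), 48.6% of Chaf1a (with Ubxn6) and 19.1% of Rfc2 (with Lat2). Pole2 shared 14.4% with Gm49384 on its own strand, and Pcna and Tyms have annotated pseudogenes. The values of these genes are uncertain to that extent.

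In CD26- NFs the same comparison gave a different picture. With CM, only Cdt1 rose and no gene fell, so 2.78% of the list was called higher where 7.88% of all tested genes were higher and 7.28% lower, and 2 genes had an unadjusted p under 0.05, as had 4346 of the 14273 tested genes. The median log2 fold change was 0.15, with 32 genes above 0 and 4 below, in a range of -0.21 to 0.48. Mcm2, Mcm4, Orc1, Cdt1, Pold1 and Tk1 had every CM library above every control, 6 genes where 10.0% of all tested genes did, and Rrm2 had every CM library below, where 10.3% did. The spread is estimated over all 4 groups, so replicate 18 enters this test as well. Without it, Cdt1, Pold1, Tyms and Tk1 were called higher, where 9.71% of all tested genes were. With only the CD26- groups in the fit, 7 genes were higher and 1 lower, where 8.44% of all tested genes were higher and 7.81% lower, and the median was again 0.15. No gene was called in CD26- NFs when the mean level of the epithelial markers, of which 1 of 10 fell with CM in this cell type (median -0.41), was added to the model, where 4.05% of all tested genes were higher. In that fit 24 of the log2 fold changes were above 0 and 12 below, with a median of 0.05, and 28 of the 36 kept their sign.

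In control medium, CD26+ NFs had higher levels than CD26- NFs of Cdt1, Gins3, Gins4, Pole2 and Pold1, and no gene of the list was lower. These 5 genes are 13.9% of the list, where 25.0% of all tested genes were higher and 25.4% lower. The log2 differences were 0.89 ± 0.17 for Pold1 (edgeR FDR 0.000387), 0.82 ± 0.16 for Cdt1 (edgeR FDR 0.000461), 0.56 ± 0.15 for Gins4 (edgeR FDR 0.00482), 0.49 for Gins3 and 0.42 for Pole2. Cdt1, Gins4 and Pold1 passed whichever of the 6 control libraries was left out. Gins3 lost the FDR without replicate 1, 2, 3, 10 or 11 (edgeR FDR up to 0.0835) and Pole2 without replicate 2, 10 or 12 (edgeR FDR up to 0.0750). The median over the list was 0.23, and 20 genes had every CD26+ control library above every CD26- control library, where 32.6% of all tested genes did. Rrm2 and Tk1 had every CD26+ library below instead, as did 32.1% of all tested genes, with log2 differences of -0.33 (edgeR FDR 0.419) and -0.25 (edgeR FDR 0.443). Without replicate 18, which is in neither group but enters the spread, 13 genes were higher, where 26.6% of all tested genes were, and Rfc3 (0.46, edgeR FDR 0.00205) and Uhrf1 (0.61, edgeR FDR 0.00906) were among them. With only the control groups in the fit, 19 genes were higher and 3 lower, where 29.8% of all tested genes were higher and 30.0% lower, and the median over the list was again 0.23. The epithelial markers differed between the cell types, as given above. With their mean level in the model no gene of the list was called, where 3.56% of all tested genes were higher, Gins3 turned to -0.07, and 30 of the 36 differences were below 0. Their part in these differences cannot be told apart from that of cell type.

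In tumour CM, 21 of the 36 genes were lower in CD26+ than in CD26- NFs and none was higher, 58.3% of the list where 29.3% of all tested genes were lower and 29.3% higher, with a median of -0.43. Tk1 had the lowest log2 difference, -1.25 ± 0.19 (95% interval -1.64 to -0.86; edgeR FDR 1.58e-05), and was the gene whose 6 CD26+ CM libraries all lay below all 6 CD26- CM libraries, where 15.7% of all tested genes did. Rrm2 was at -0.98 ± 0.23 (edgeR FDR 0.00153), a level of 50.7% of that in CD26- NFs, Rrm1 at -0.60 ± 0.14, Rfc2 at -0.55 ± 0.11 and Mcm7 at -0.52 ± 0.14. Without replicate 18 these 5 were at -1.54, -1.31, -0.77, -0.67 and -0.71. All 4 nucleotide supply genes were lower, as were 5 of 7 clamp and joining genes, 5 of 10 licensing genes, 3 of 5 polymerase genes, 2 of 6 firing genes and 2 of 4 chromatin genes. Without replicate 18 all 7 clamp and joining genes, 8 of 10 licensing genes, 5 of 6 firing genes and 3 of 4 chromatin genes were lower, with 3 of 5 polymerase genes as before. Cdt1, Pold1 and Pole2, higher in CD26+ NFs in control medium, were at -0.01, -0.07 and 0.01 in CM, with 95% intervals of -0.25 to 0.23 for Cdt1 and -0.33 to 0.19 for Pold1, and at -0.11, -0.21 and -0.11 without replicate 18. Without replicate 18, 30 genes were lower, where 30.0% of all tested genes were, and the groups of 25 genes did not overlap, where 19.0% of all tested genes lay wholly lower. Left out singly, CD26- CM replicate 8 and CD26+ CM replicate 13 each brought the count to 13. In those fits 27.6% and 28.8% of all tested genes were lower. With the epithelial marker level in the model 3 genes were called lower, where 4.92% of all tested genes were, while all 36 differences were below 0 and their median was -0.84.

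The difference between the CM effects of the cell types was tested directly. It was below 0 for all 36 genes, with a median of -0.74 and a range of -1.11 to -0.25, and 27 genes had an unadjusted p under 0.05, as had 3603 of the 14273 tested genes. At the FDR 3 genes were called, 8.33% of the list where 3.01% of all tested genes were called lower and 4.53% higher. DESeq2 called 9 (4.60% of all tested genes lower) and limma-voom 15 (4.52%), with the edgeR calls among them in both. The 3 edgeR calls were Pold1 at -0.96 ± 0.21 (95% interval -1.41 to -0.51; edgeR FDR 0.0137), Cdt1 at -0.83 ± 0.20 (edgeR FDR 0.0195) and Gins4 at -0.75 ± 0.19 (edgeR FDR 0.0227). All 3 were also called higher in CD26+ control, and the control libraries enter both comparisons. Pold1 passed in each of the 18 fits without a library. Cdt1 was lost without CD26- control replicate 3, and Gins4 without that library or CD26+ control replicate 11, with FDRs of up to 0.0636 and 0.0692. The count of 3 became 1 and 2 in those fits, where 1.2% and 0.882% of all tested genes were called lower. Without replicate 18 it became 31, where 8.43% of all tested genes were called lower, with a median of -0.97 and with Pold1, Cdt1 and Gins4 at -1.10, -0.94 and -0.87. With the CM line as a replicate block, which pairs the libraries given the same medium, 20 genes were called, where 8.21% of all tested genes were lower, and Tk1 (-1.06, edgeR FDR 0.0188) and Mcm7 (-0.74, edgeR FDR 0.0390) were among them. With that block and without both libraries of line 13-MCB-138, an alternative added after the data had been seen, 34 genes were called, where 12.2% of all tested genes were lower. In the comparison of cell types in tumour CM the block gave 26 genes with all libraries and 32 without that line, where 31.4% and 31.8% of all tested genes were lower.

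Compared line by line, the CM of 5 of the 6 lines left the replication genes lower in CD26+ than in CD26- NFs. With the CM of 13-MCB-17, 10-SJK-221 and 13-MCB-90 all 36 genes were lower in the CD26+ library of the pair, with median log2 differences of -1.15, -0.86 and -0.64. With 18-MCB-12 and 13-MCB-44, 31 genes were lower, with medians of -0.34 and -0.31. With 13-MCB-138 it was 3, and the median was 0.42. Over all tested genes the share that was lower in the CD26+ library stayed between 48.2% and 51.6% in the 6 pairs. There is 1 library for each cell type and line, so no value within a line has a replicate.

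Within CD26+ CM the same libraries stood at the extremes in nearly all genes. Replicate 18 was the highest of the 6 in all 36 genes, as it was in 24.5% of all tested genes. Replicate 13, given the CM of 13-MCB-17, was the lowest in 33, as it was in 19.0% of all tested genes. Against the mean of their own controls, the median gene was at -1.17, -0.86, -0.47, -0.57, -0.76 and 0.17 on the log2 scale in replicates 13 to 18. In replicate 13 all 36 genes lay below all 3 controls, where 38.5% of all tested genes did. In replicate 18 only 2 did while 29 lay above them, where 29.6% of all tested genes lay below and 33.5% above. The CD26- CM libraries differed less, with medians of 0.20, 0.30, 0.17, 0.01, 0.23 and 0.02 in replicates 4 to 9, and no library was highest or lowest in more than 18 genes. Replicates 7 and 9, given the CM of 13-MCB-44 and 13-MCB-138, were nearest to their controls, and over other CM-responsive genes they showed 61.4% and 68.2% of the change of their group, where the other 4 showed 107% to 115%. A test of differences among lines shared by both cell types, over the 12 CM libraries, called 0 of the 36 genes with edgeR (lowest FDR 0.291) and 0 with DESeq2 (lowest adjusted p 0.184), where 6.56% of the 13344 genes tested there were called and 22.5% had an unadjusted p under 0.05. Of the 36 genes 0 had an unadjusted p under 0.05 in edgeR and 2 in DESeq2, Rrm1 (0.0270) and Cdc6 (0.0399). Gins4 and Rrm1 had the smallest p of the list in the edgeR test. Without the filter on low counts edgeR called 4. No share over all genes was taken for that fit, so this count cannot be set against one.

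**Figure D4:**
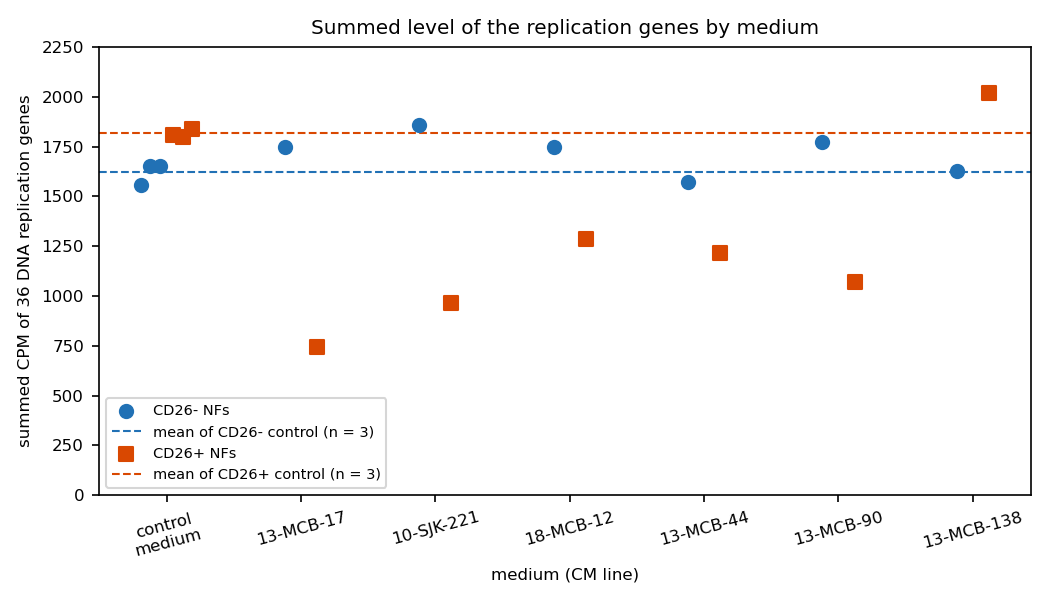
The y axis is the summed CPM of the 36 replication genes and the x axis the medium, with a point for each library (circles CD26- NFs, squares CD26+ NFs) and dashed lines at the means of the 3 control libraries of each cell type. Squares lie below circles for 5 CM lines, between 742.4 and 1288 CPM, and above for 13-MCB-138, at 2021 CPM.

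Of a list of 32 further replication genes, 18 fell and none rose with CM in CD26+ NFs (56.2%, median -0.38), where 13.4% of all tested genes fell, and 23 fell without replicate 18. In CD26- NFs, where 7.88% of all tested genes were called higher and 7.28% lower, 1 rose. Without replicate 18 it was 2, where 9.71% were called higher. Of 22 further genes of nucleotide supply, chromatin assembly and the E2F family, 9 were lower and 1 higher with CM in CD26+ NFs (12 and 1 without replicate 18), and 1 was lower and 1 higher in CD26- NFs. Mitosis genes were called lower with CM in CD26+ NFs. In CD26+ NFs 23 of 24 fell with CM, with a median log2 fold change of -0.85 (24 of 24 and -1.08 without replicate 18), and in CD26- NFs 0 of 24 were called by edgeR and none had an unadjusted p under 0.05. Their summed level was 1572 to 1689 CPM in CD26+ control and 495.1 to 860.9 CPM in 5 CD26+ CM libraries, with replicate 18 at 1627 CPM, inside the control range. Top2a, the topoisomerase that untangles chromosomes, had 291 to 313 CPM in CD26+ control and 75.8 to 292 CPM in CD26+ CM (-1.09 ± 0.25, edgeR FDR 0.00414; -1.43 without replicate 18). Mki67, the proliferation marker Ki-67, had 164 to 183 CPM in CD26+ control and 59.7 to 210 CPM in CM (-0.55 ± 0.24, edgeR FDR 0.103, or -0.80 and edgeR FDR 0.00182 without replicate 18), with replicate 13 lowest and replicate 18 highest.

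Cdkn1a, the CDK inhibitor p21 that holds cells before S phase, was higher with CM in CD26+ NFs. It was at 154, 132 and 149 CPM in CD26+ control and at 356, 279, 231, 281, 264 and 196 CPM in replicates 13 to 18, so that every CM library was above every control, replicate 13 was highest and replicate 18 lowest. It rose by 0.89 ± 0.13 on the log2 scale (edgeR FDR 7.23e-05), and by 0.95 without replicate 18. In CD26- NFs it ran from 319 to 357 CPM in control and 334 to 377 CPM in CM, with overlapping groups, and the CM effects differed by 0.79 (edgeR FDR 0.0118). Ccnd1, the D cyclin that drives G1, also rose in CD26+ NFs, where it held 66.2 to 96.8 CPM in control and 113 to 295 CPM in CM (1.32 ± 0.26, edgeR FDR 0.00104, and 1.44 without replicate 18), again with replicate 18 lowest and replicate 13 highest. In CD26- NFs Ccnd1 was at 327 ± 27.0 CPM (SD, n = 3) in control and 473 ± 97.8 CPM (SD, n = 6) in CM, and 5 of 6 CM libraries were above every control. The log2 fold change there was 0.53 ± 0.24 (edgeR FDR 0.149), and the CM effects differed by 0.79 (edgeR FDR 0.152). Cdkn2a, the locus of p16, was at 10.3 to 10.4 CPM in CD26+ control and 7.06 to 17.1 CPM in CM (0.19 ± 0.25, edgeR FDR 0.604). Of 13 CDK inhibitor and D cyclin genes, 3 were higher and 3 lower with CM in CD26+ NFs, against 2 higher and 1 lower in CD26- NFs. The shares in CD26+ NFs were 23.1% higher and 23.1% lower, where 15.2% and 13.4% of all tested genes were. Without replicate 18 the counts were 3 higher and 5 lower in CD26+ NFs, and 2 higher and 2 lower in CD26- NFs. The part of these genes in the levels of the replication genes was not tested.

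**Figure D5:**
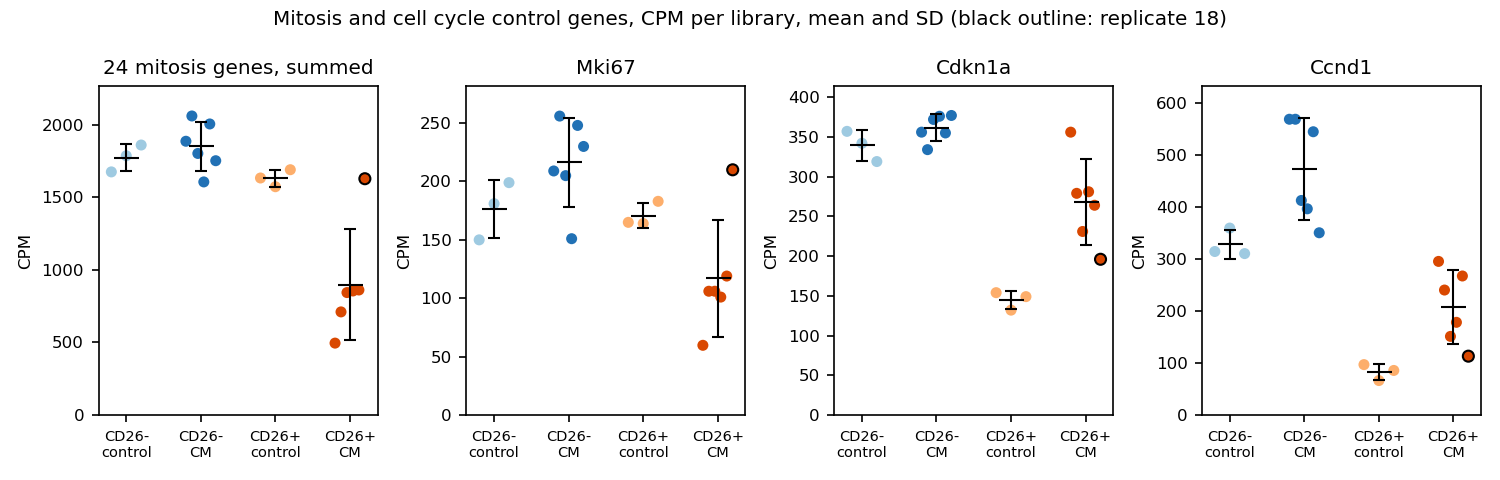
The panels plot the summed CPM of 24 mitosis genes and the CPM of Mki67, Cdkn1a and Ccnd1 in every library by group, with the mean and SD in black and replicate 18 outlined in black. In CD26+ CM, replicate 18 is the highest library for the mitosis sum (1627 CPM) and for Mki67 (210 CPM), and the lowest for Cdkn1a (196 CPM) and Ccnd1 (113 CPM).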

How the data were processed

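RNA was measured in 18 libraries of mouse mammary fibroblasts. The authors made stranded polyA libraries, aligned the reads with HISAT2 2.1.0 to GRCm38 and counted them with HTSeq. The annotation release and the counter's strand setting are not given in the sources used here. The deposited values are raw counts for each Ensembl gene, not normalized, and 1 row without a gene (0 counts) was left out. Libraries held 9725723 to 14585349 counts. Groups come from the labels.

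Counts were scaled by TMM, filtered with filterByExpr by group (14273 genes kept) and fitted with edgeR 4.0.16 (quasi-likelihood F test) in a model of the 4 groups over all 18 libraries, under R 4.3.3. The 5 contrasts were tested with Benjamini-Hochberg adjustment over all tested genes and a threshold of 0.05. Differences among CM lines were tested in the 12 CM libraries with cell type as a term. Log2 CPM used a prior count of 2. Replicates differed by more than counting error, with at least 3.03 chi-square per degree of freedom. The scripts were tested on simulated data.

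Libraries given CM of the same line deviated together, with r from 0.247 to 0.406 in all 6 pairs, and the labels name the line, so the line served as a replicate block in an alternative. Other alternatives were DESeq2 1.42.0, limma-voom (limma 3.58.1), RLE and upper quartile scaling, no filter, the epithelial marker level as a covariate, only the groups compared, and each library left out.

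The genes and lists were chosen with earlier results of these data known. All 36 genes may be named. Values per library are given for the gene of each role with the smallest p in the CM effect of each cell type and between cell types in control medium, and for the 2 with the smallest p among lines. Of the other lists Mki67, Top2a, Cdkn1a, Cdkn2a and Ccnd1 were fixed by name.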

Additional observations from a re-analysis of the deposited data

Results flagged for a closer look

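In CD26+ CM, 5 of the 36 genes had a library whose gap to the nearest other library took up more of the group's log2 CPM range than Dixon's limit for 6 libraries allows. The shares were 0.81 for Rfc4, 0.709 for Pole2, 0.651 for Pola1, 0.639 for Rfc3 and 0.627 for Tk1, and in each the library was replicate 18, the highest. Chance marks about 1 in 20 groups, and 5 of the 74 groups tested were marked, with 0 in CD26- CM. The groups are not independent, since the genes vary together across libraries.

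The CM effects of the cell types differed by edgeR's test of the difference for Pold1 (-0.96 on the log2 scale), Cdt1 (-0.83) and Gins4 (-0.75), each lower in CD26+ NFs.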

How the results depend on the processing

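No gene's fold change past the FDR turned direction except Gins3 in control medium, which went from 0.49 to -0.07 (edgeR FDR 0.933) with the epithelial marker level as a covariate. With that covariate the counts of genes higher with CM in CD26- NFs and higher in CD26+ control were 0 and 0, and 3 were lower in CD26+ NFs in tumour CM. With only the groups compared in the fit, 7 genes were higher and 1 lower with CM in CD26- NFs, 3 were lower with CM in CD26+ NFs, and in control medium 19 were higher and 3 lower in CD26+ NFs; this setting changes both the samples and the spread used. The difference between the CM effects was called for 15 genes with limma-voom, 9 with DESeq2 and 20 with the CM line as a replicate block. With the block and without both libraries of line 13-MCB-138 it was called for 34, and 32 were lower in tumour CM. The test among lines called 4 genes without the filter, a fit for which no share over all genes was taken. For the other results named here the cause was not tested.

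When each library of the groups compared was left out in turn, the number of genes higher with CM in CD26- NFs was 0 to 1, lower with CM in CD26+ NFs 7 to 34, higher in CD26+ control 3 to 4, lower in CD26+ NFs in tumour CM 13 to 30, and lower in the difference between the CM effects 1 to 31. The shares of all tested genes in those fits ran, in the same order, from 3.26% to 9.9%, 8.83% to 17.5% and 21.2% to 22.7%. In tumour CM they ran from 27.6% to 30%, and for the difference between the CM effects from 0.882% to 8.43%. The count of 3 in control medium came without replicate 2 or 10. Replicate 18 enters the spread of comparisons it is not part of, and without it 4 genes were higher with CM in CD26- NFs and 13 in CD26+ control. RLE and upper quartile scaling kept every count within 1.5 times. No paired analysis was possible for the CM effects because control libraries carry no line, and the block was fitted to the comparison in tumour CM and to the difference between the CM effects.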
